A study of Mus musculus with 13 samples.

Results

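The nuclear genes of respiratory complexes III, IV and V were read in nuclei of mouse ventricular cardiomyocytes. Rows of the smaller deposited table were taken if their symbol began with Uqcr, Cox4, Cox5, Cox6, Cox7, Cox8 or Atp5, or was Cyc1 or Cycs, and if the name held no "-ps". That gave 44 rows of 15645, with 43 symbols, because Atp5o has 2 identifiers. By textbook role, 9 rows encode complex III, 16 complex IV and 17 complex V, and 1 encodes cytochrome c. The remaining row, Atp5s, is named for the ATP synthase as coupling factor B. All 44 were annotated as protein-coding and all entered the tests. Cox4i1, Cox6c2 and Cox8c have names that meet the rule but lie under the mean count of 10 that defines the smaller table.

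The study crossed vector with sex in C57BL/6J mice, an inbred laboratory strain. On postnatal day 1 pups of both sexes were injected once into the peritoneum with adeno-associated virus of serotype 6, and hearts were taken on postnatal day 56. The groups were AAV_PGR females (3 libraries, numbered 1, 2 and 4), AAV_Con females (4 libraries), AAV_PGR males (3) and AAV_Con males (3). AAV_PGR carried human PR, the progesterone receptor, and AAV_Con carried no insert. Every group therefore received virus, and no uninjected group was analysed here. Each library pooled nuclei from 3 to 6 whole ventricles sorted for Pcm1, a protein used to mark cardiomyocyte nuclei. The sources used here do not give the promoter that drives the insert, and the human PR transcript was not analysed here.

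Complex III, also called cytochrome bc1, passes electrons from ubiquinol to cytochrome c, and complex IV, cytochrome c oxidase, passes them on to oxygen. Both pump protons out of the mitochondrial matrix, and complex V, the ATP synthase, lets them back to make ATP. A few core subunits are encoded by mitochondrial DNA and the rest by the nucleus. Heart and skeletal muscle use their own isoforms of several complex IV subunits, among them Cox6a2, Cox7a1 and Cox8b, in place of the isoforms named for liver, Cox6a1, Cox7a2 and Cox8a.

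Total counts ran from 31.8 to 86.3 M per library, and the 44 genes took 0.160% to 0.186% of them. Counts are of nuclear RNA over whole gene intervals, introns included, and levels are in CPM, counts scaled to a common library total, after TMM scaling, a factor per library that evens out composition. The summed level of 8 cardiomyocyte markers lay between 80058 and 90860 CPM, and none of the 50 markers listed, of this and other cell types, sex and the sort, was at 0 in every library. Summed endothelial markers ranged from 35.6 to 63.0 CPM in AAV_PGR females and 49.8 to 62.4 CPM in AAV_Con females, and from 29.1 to 53.3 CPM in AAV_PGR males and 25.9 to 47.6 CPM in AAV_Con males. Summed fibroblast markers ranged from 50.3 to 95.8 CPM in AAV_PGR females and 63.1 to 99.3 CPM in AAV_Con females, and from 31.1 to 78.1 CPM in AAV_PGR males and 24.6 to 54.9 CPM in AAV_Con males. The part of these cells in the results was not tested. In such pooled nuclei, fewer nuclei of a type and less RNA per nucleus cannot be told apart. On different measures 2 libraries stood apart: 4 Y-linked genes summed to 4.22 CPM in AAV_Con female 4, 1.03% of the male mean, against at most 0.472 CPM in the other 6 female libraries. In AAV_PGR female 1, protein-coding genes other than the 44 with mostly exonic intervals had a mean log2 deviation of -0.165 relative to those with mostly intronic ones, where the other 12 libraries lay between -0.051 and 0.132. The 0.132 was that of AAV_Con female 1, and the next highest was 0.059 in AAV_Con female 4. Results are given with and without AAV_Con female 4 and AAV_PGR female 1 where they move them.

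Promoter sequence was set beside the counts because many nuclear respiratory genes are textbook targets of the factors NRF1, GABP (an ETS factor, also called NRF2) and YY1. RefSeq windows (GRCm38.p6) from 250 bases before to 50 bases after each start were found for 34 of the 43 symbols, 37 windows in all. The letters GCGCATGCG (NRF1), CCGGAAG (ETS) and AAGATGGCG (YY1) were searched on both strands, and no match of one motif overlapped another motif in the windows printed. Shown are Cox6a1, which holds an NRF1 and an ETS match, Cox6b1, whose level differed with the vector in females before adjustment, Atp5j, whose interval overlaps on the opposite strand that of Gabpa, the gene of the DNA-binding subunit of GABP, and the muscle isoform Cox7a1, with no match. Of the Atp5j windows, the one with matches is shown. The other, chr16:84835576-84835875, minus strand, spans the annotated start of the Atp5j interval and holds no match. Capitals mark the matches, the longer NRF1 run is a palindrome matched on both strands, and CTTCCGG is the ETS motif on the opposite strand.
Cox6a1, chr5:115348909-115349208, minus strand: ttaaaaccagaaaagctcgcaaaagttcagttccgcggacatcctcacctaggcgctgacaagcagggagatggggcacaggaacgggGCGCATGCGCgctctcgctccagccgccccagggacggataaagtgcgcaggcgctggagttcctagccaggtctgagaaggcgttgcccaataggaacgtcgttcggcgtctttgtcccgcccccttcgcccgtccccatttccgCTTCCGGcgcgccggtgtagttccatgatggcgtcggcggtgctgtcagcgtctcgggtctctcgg
Cox6b1, chr7:30626065-30626364, minus strand: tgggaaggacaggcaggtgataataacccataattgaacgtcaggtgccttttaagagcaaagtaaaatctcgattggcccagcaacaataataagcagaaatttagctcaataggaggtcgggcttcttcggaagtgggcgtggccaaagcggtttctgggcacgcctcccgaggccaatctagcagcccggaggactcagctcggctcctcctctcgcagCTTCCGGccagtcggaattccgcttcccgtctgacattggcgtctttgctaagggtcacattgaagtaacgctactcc
Atp5j, chr16:84834927-84835226, minus strand: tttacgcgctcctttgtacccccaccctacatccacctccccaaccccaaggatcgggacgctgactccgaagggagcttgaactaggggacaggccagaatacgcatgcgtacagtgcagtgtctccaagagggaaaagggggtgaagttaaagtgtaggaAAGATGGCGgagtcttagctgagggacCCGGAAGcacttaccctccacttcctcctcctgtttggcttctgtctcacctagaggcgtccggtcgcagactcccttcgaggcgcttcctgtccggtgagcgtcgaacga
Cox7a1, chr7:30183921-30184220, plus strand: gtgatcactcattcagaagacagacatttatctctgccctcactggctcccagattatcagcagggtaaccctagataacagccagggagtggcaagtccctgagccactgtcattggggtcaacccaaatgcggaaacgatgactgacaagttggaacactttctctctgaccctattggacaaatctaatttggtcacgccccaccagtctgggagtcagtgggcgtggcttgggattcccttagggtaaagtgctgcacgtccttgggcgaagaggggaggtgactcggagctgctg
The ETS letters were in 10 of the 37 windows (27.0%, against 8.86% of 32851 RefSeq windows): those of Atp5e, Uqcrh, Atp5k, Cox6a1, Cox6b1, Uqcr11, Atp5l, Atp5h, Atp5j and Cox8a. The NRF1 letters were in 7 windows (18.9%, against 1.75%), those of Atp5k, Cox6a1, Cycs, Uqcr11, Atp5l, Uqcrc1 and Atp5g2. In 4 of these, Atp5k, Cox6a1, Uqcrc1 and Atp5g2, they extended to the full palindrome (10.8%, against 0.971%), the form searched first. The YY1 letters were in 2 windows (5.41%, against 1.40%), those of Atp5j2 and Atp5j. The 32851 windows were not limited to genes expressed here. The median share of G and C letters was 56.0% in the 37 windows and 52.7% in the 32851, and its part was not tested. A match is a description of the letters and says nothing of binding.

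Which gene stood highest depended on the length that levels were divided by, since counts cover introns and exons and exons made up 0.218% to 85.6% of the members' intervals. Per kb of the counted interval, Cox6a2, the muscle isoform of subunit 6A, had the highest mean over the 13 libraries, 17.1 CPM per kb. It was followed by Atp5b and Atp5a1, the beta and alpha subunits that form the catalytic head of the ATP synthase, at 15.1 and 14.4 CPM per kb, and by Cyc1, the cytochrome c1 of complex III, at 12.2 CPM per kb. The ranges of the first 3 overlapped: 8.84 to 26.8 for Cox6a2, 14.0 to 16.2 for Atp5b and 12.9 to 15.9 CPM per kb for Atp5a1. Per exonic kb, a scale added after the data were seen, Atp5c1, the gamma subunit of the ATP synthase rotor, stood first at 116 CPM per exonic kb. Cox6b1, the general form of subunit 6B, followed at 72.4 and Cox7b at 51.6, while Cox6a2 at 23.9 CPM per exonic kb was number 14 of the 44. Cycs, the soluble carrier between complexes III and IV, had 3.81 CPM per kb and 4.45 CPM per exonic kb.

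**Figure D1:**
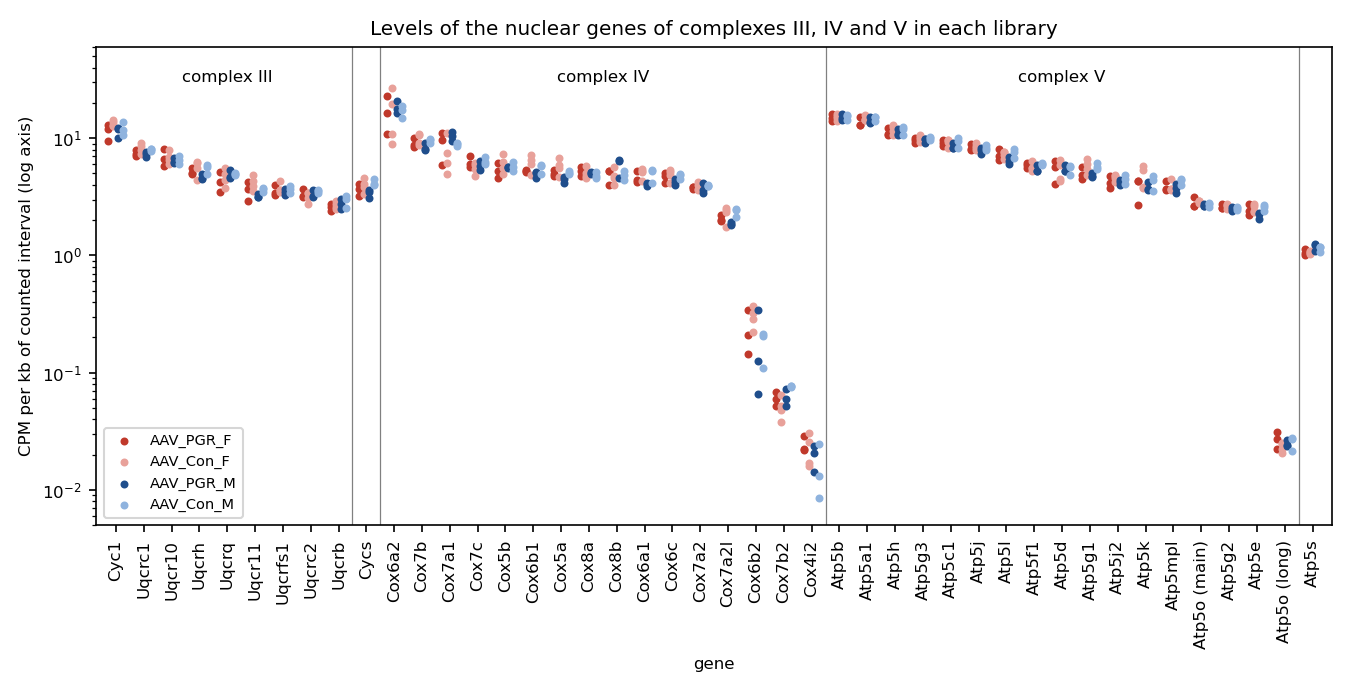
CPM per kb of counted interval (log axis) for each of the 44 genes, ordered by level within each complex, with 1 point per library coloured by group. Cox6a2 leads complex IV at a mean of 17.1 CPM per kb on this scale, though not per exonic kb, while Cox6b2, Cox7b2 and Cox4i2 lie below 0.4 CPM per kb in every library. The long Atp5o row is ENSMUSG00000116933, the main one ENSMUSG00000022956, and the last column is Atp5s.

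Isoforms named for testis or lung were low per kb of interval, and Cox6b2 and Cox4i2 were the lowest 2 of the 44 per exonic kb as well. Cox6b2, the testis isoform of subunit 6B, averaged 0.228 CPM per kb against 5.51 CPM per kb for its general form Cox6b1. Cox7b2, the testis isoform of subunit 7B, averaged 0.0611 CPM per kb against 9.27 CPM per kb for Cox7b, and 11.9 against 51.6 CPM per exonic kb. Cox4i2, the lung isoform of subunit 4, averaged 0.0206 CPM per kb, and Cox4i2 and Cox6b2 were the 2 genes with fewer than 10 counts in some library. Cox8c, the testis isoform of subunit 8, had 0 counts in all libraries, which allows up to 3 counts in each, and Cox6c2 had 3 counts in total. Cox4i1, the general isoform of subunit 4, was also listed at 0, but its interval lies wholly inside that of Gm20388 on the same strand, which averaged 6617 counts, so its value does not measure the gene.

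Whether the muscle isoforms stood above the liver isoforms depended on the scale. Cox6a2 over Cox6a1, as a ratio of CPM per kb of interval, was 2.47, 4.32 and 3.84 in AAV_PGR females and 3.69, 1.72, 1.96 and 6.17 in AAV_Con females. It was 4.26, 4.22 and 5.12 in AAV_PGR males and 3.31, 2.75 and 4.51 in AAV_Con males. This ratio was above 1 in all 13 libraries, but by CPM per exonic kb it was 0.508 to 1.82 with 5 of 13 below 1, and by CPM it was 0.492 to 1.76, also with 5 below 1. The vector groups overlapped in both sexes.

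On the per-kb scale Cox7a1 over Cox7a2 was 1.54, 2.87 and 2.66 in AAV_PGR females and 1.87, 1.18, 1.67 and 3.12 in AAV_Con females. In males it was 2.59, 3.08 and 2.75 with AAV_PGR and 2.36, 2.15 and 2.25 with AAV_Con, so all 3 AAV_PGR males lay above all 3 AAV_Con males. Among single genes, 7.2% of all tested were higher that way in males, and no such share is given for ratios. Per exonic kb Cox7a1 over Cox7a2 was 0.890 to 2.36 with 1 of 13 libraries below 1, and by CPM 0.504 to 1.34 with 6 below 1. Cox8b over Cox8a stayed near 1, with 0.838, 0.909 and 1.01 in AAV_PGR females, 0.814, 0.838, 0.902 and 1.25 in AAV_Con females, 0.930, 1.25 and 1.27 in AAV_PGR males and 0.857, 1.01 and 1.16 in AAV_Con males. The groups overlapped in both sexes for this pair, which lay below 1 in all 13 libraries by CPM (0.496 to 0.774).

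**Figure D2:**
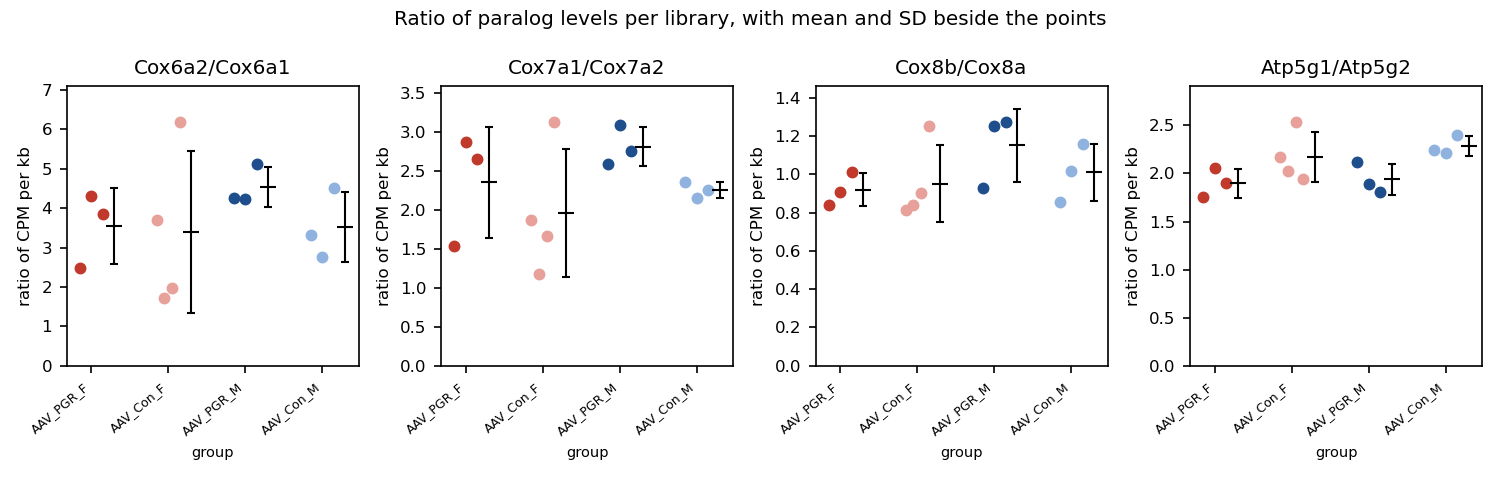
Ratio of CPM per kb for 4 pairs of paralogs in each library (points), with the mean and SD of each group beside the points. Per kb of interval Cox6a2/Cox6a1 is above 1 in all 13 libraries, which does not hold per exonic kb, and spreads from 1.72 to 6.17 among the AAV_Con females alone, while Cox8b/Cox8a lies near 1.

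Subunit c of the ATP synthase rotor is made from 3 genes that encode the same mature protein. Their order turned with the scale. Per kb of interval Atp5g3 had 9.81, Atp5g1 5.36 and Atp5g2 2.58 CPM per kb. By CPM Atp5g1 stood first at 36.6, before Atp5g3 at 28.3 and Atp5g2 at 24.5 CPM, and per exonic kb Atp5g2 stood first at 14.6, before Atp5g3 at 12.96 and Atp5g1 at 7.45 CPM per exonic kb. Atp5g2 was also the steadiest of all 44 genes, with 24.1, 26.3 and 24.1 CPM in AAV_PGR females, 26.2, 25.4, 25.0 and 23.7 CPM in AAV_Con females, 22.6, 23.8 and 24.7 CPM in AAV_PGR males and 23.3, 24.6 and 24.2 CPM in AAV_Con males. Atp5g3 lay between 26.0 and 30.8 CPM in every library. Per kb of interval, Atp5g1 over Atp5g2 was 1.75, 2.05 and 1.90 in AAV_PGR females and 2.17, 2.02, 2.53 and 1.94 in AAV_Con females. In males it was 2.12, 1.89 and 1.80 with AAV_PGR and 2.25, 2.21 and 2.40 with AAV_Con. The AAV_PGR males thus lay under the AAV_Con males, and the female groups overlapped. Among single genes, 8.48% of all tested were lower that way in males, and no such share is given for ratios.

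Most of the 44 genes varied little between libraries of a group. The SD of log2 CPM about the group means had a median of 0.136 over them, against 0.189 over all 16125 genes tested. The genes were not matched for level, and the part of level in this difference was not tested. It was 0.06 for Atp5g2 and 0.07 for Atp5g3 but 0.51 for Cox6a2 and 0.37 for Cox7a1, and 0.60 and 0.40 for the barely detected Cox6b2 and Cox4i2. Cox6a2 had 10.3, 21.8 and 15.5 CPM in AAV_PGR females, 18.6, 8.42, 10.3 and 25.5 CPM in AAV_Con females, 16.8, 15.7 and 19.8 CPM in AAV_PGR males and 16.6, 14.1 and 17.9 CPM in AAV_Con males. Its lowest and highest values both came from AAV_Con females. Cox7a1 had 11.4, 21.4 and 18.8 CPM in AAV_PGR females, 14.6, 9.59, 11.99 and 21.6 CPM in AAV_Con females, 18.3, 20.3 and 21.9 CPM in AAV_PGR males and 17.8, 16.6 and 17.1 CPM in AAV_Con males. The 3 libraries lowest for Cox6a2 were also the 3 lowest for Cox7a1: AAV_PGR female 1 and AAV_Con females 2 and 3. Across all 946 pairs of members the deviations from the group means correlated with a median r of 0.30 over the 13 libraries, against 0.01 between a member and every gene tested. These points share library, depth and scaling, so the value is a description.

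The first comparison asked what AAV_PGR changed in females relative to AAV_Con. No member passed edgeR's quasi-likelihood test at an adjusted p under 0.05, a level that 0% of all 16125 genes reached. Of the 44, 1 member, Cox6b1, was lower at an unadjusted p under 0.05 (5.15% of all genes) and 0 were higher (5.8% of all genes, making 10.9% in either direction). DESeq2 and limma-voom also called 0 after adjustment, with 1 and 0 members at an unadjusted p under 0.05. The median log2 fold change was -0.05 over the members and 0.00 over all genes, and 30 of 44 were below 0 (49.3% of all genes). Before TMM scaling the members took a mean of 0.174% of counts in both female groups, and the part of the scaling was not tested. For 37 of the 44, the 95% interval of the log2 fold change lay within 0.5 of 0.

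Cox6b1, which bridges the monomers of the complex IV dimer, had 49.4, 48.4 and 47.5 CPM in AAV_PGR females, against 60.3, 56.1, 66.4 and 45.5 CPM in AAV_Con females. AAV_Con female 4 lay below all 3 AAV_PGR libraries and the other 3 lay above them. The log2 fold change was -0.24 (SE 0.11, edgeR adjusted p = 0.434). Cyc1 had 26.0, 35.5 and 32.8 CPM in AAV_PGR females, against 39.1, 35.7, 34.9 and 37.9 CPM in AAV_Con females, a log2 fold change of -0.23 (SE 0.11). Of the AAV_PGR females only library 2 reached the AAV_Con range. Without AAV_PGR female 1, the lowest library, the log2 fold change of Cyc1 was -0.12. That of Cox6b1 was -0.16 without AAV_Con female 3.

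Cox5a, a matrix-side subunit of complex IV, had 60.01, 52.7 and 55.0 CPM in AAV_PGR females, against 62.5, 66.4, 76.3 and 52.1 CPM in AAV_Con females (log2 fold change -0.20, SE 0.10). Atp5g1 had 30.3, 38.8 and 32.9 CPM, against 40.9, 37.0, 45.4 and 33.1 CPM (log2 fold change -0.20, SE 0.10). Uqcrc1, a core protein of complex III, had 91.0, 103 and 95.4 CPM, against 118, 103, 111 and 94.5 CPM (log2 fold change -0.14, SE 0.08). In all 3 genes the lowest AAV_Con value was that of library 4, and the groups overlapped. Without AAV_Con female 3 the log2 fold change was -0.11 for Cox5a and -0.12 for Atp5g1, which was also -0.13 without AAV_PGR female 1 and -0.30 without AAV_PGR female 2. That of Uqcrc1 was -0.09 without AAV_Con female 1. No member had groups that did not overlap (4.07% of all genes were lower that way and 4.17% higher). The lower count was 7 without AAV_PGR female 2, 5 without AAV_Con female 4 and 1 without AAV_PGR female 1 or AAV_Con female 3, and the higher count was 1 without AAV_PGR female 1 or AAV_Con female 2. With a library left out, groups fail to overlap more readily, and the shares of all genes are not given for these counts. Without AAV_Con female 4 the count of members at an unadjusted p under 0.05 was 8 in place of 1, where 15.5% of all genes reached that level, with 0 past adjustment. That count was 4 without AAV_PGR female 2, 3 without AAV_PGR female 1, 2 without AAV_Con female 2, AAV_Con male 2, AAV_Con male 3 or AAV_PGR male 3, and 0 without AAV_Con female 1, AAV_Con female 3 or AAV_PGR female 4. In these fits 7.25% (without AAV_PGR female 1) to 11.7% (without AAV_Con female 2) of all genes reached that level.

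In males the same comparison gave more values below 0. The median log2 fold change was -0.08 over the members and 0.00 over all genes, with 36 of 44 members below 0 (49.9% of all genes). All 9 complex III genes and 16 of 17 complex V genes lay below 0, against 10 of 16 in complex IV, where Cox7a1, Cox8b, Cox6a2, Cox8a, Cox4i2 and Cox6b2 lay above it. No member passed adjustment in edgeR (0% of all genes), DESeq2 or limma-voom. At an unadjusted p under 0.05, 6 members were lower (3.94% of all genes) and 0 higher (3.53% of all genes, making 7.48% in either direction), and DESeq2 and limma-voom had 4 and 5 such members.

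Cox7a2l, a relative of subunit 7A that binds complexes III and IV into supercomplexes and is shortened in C57BL/6 strains, had 29.7, 28.2 and 28.3 CPM in AAV_PGR males, against 37.6, 38.6 and 32.6 CPM in AAV_Con males. The groups did not overlap, and the log2 fold change was -0.34 (SE 0.12, edgeR adjusted p = 0.611). Cycs had 13.8, 12.4 and 14.3 CPM, against 16.2, 17.9 and 15.9 CPM (log2 fold change -0.30, SE 0.12). Cox6a1, the liver isoform, had 13.8, 13.1 and 13.6 CPM, against 17.5, 17.9 and 13.9 CPM (log2 fold change -0.29, SE 0.12). AAV_Con male 3 lay close to the AAV_PGR values for Cox6a1, though still above them.

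Atp5g1 had 34.4, 32.3 and 32.0 CPM in AAV_PGR males, against 37.6, 39.1 and 41.7 CPM in AAV_Con males (log2 fold change -0.26, SE 0.11). Atp5l, the g subunit of the membrane part of the ATP synthase, had 52.4, 49.0 and 56.8 CPM, against 62.7, 66.1 and 55.1 CPM (log2 fold change -0.22, SE 0.10). The Atp5l groups overlapped, and those of Atp5g1 did not. In all, 11 members were lower without overlap (8.48% of all genes): Atp5e, Uqcrh, Cox7b2, Cox6a1, Cycs, Uqcr11, Cox5a, Uqcrc1, Atp5g1, Cox6c and Cox7a2l. Another 1, Cox7a1, was higher without overlap (7.2% of all genes), with a log2 fold change of 0.23 (SE 0.27). The higher count was 3 without AAV_PGR male 1 or AAV_Con male 1. The count of 11 was 22 without AAV_Con male 3 and 21 without AAV_PGR male 3. Smaller groups fail to overlap more readily, and the shares of all genes are not given for them, so these counts are descriptions. Of the 6 members at an unadjusted p under 0.05, 1 was left without AAV_Con male 2 or without AAV_PGR male 2, and 3 without AAV_Con male 1. The share of all genes at that level fell as well, from 7.48% to 4.13%, 3.98% and 6.72% in the same order. With the male groups fitted alone there were 12 such members, where 10.3% of all genes reached that level in place of 7.48%.

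**Figure D3:**
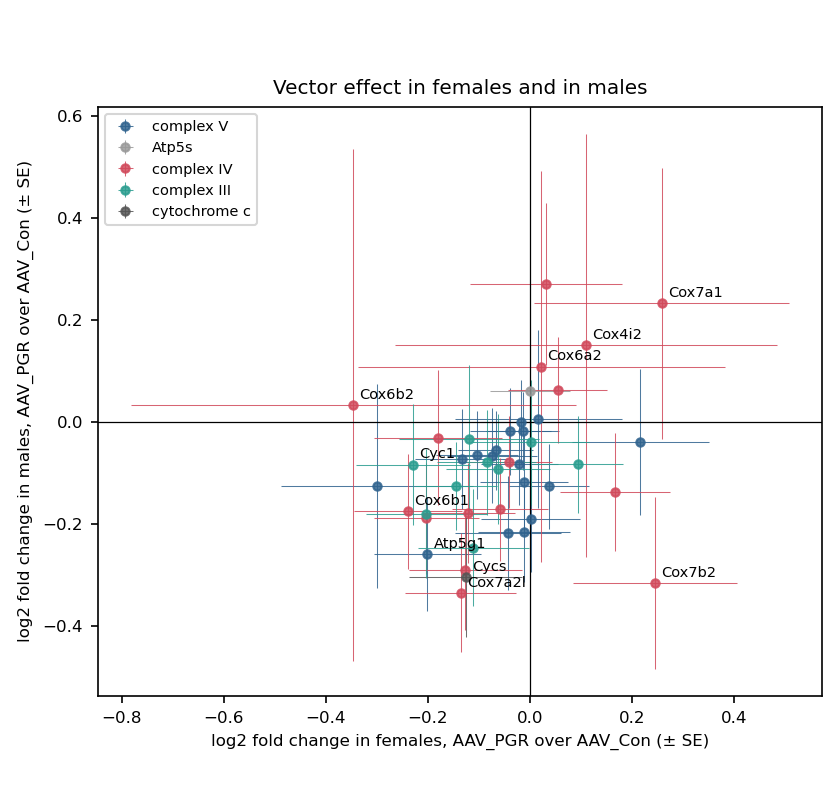
Log2 fold change of AAV_PGR over AAV_Con in females (horizontal axis) and in males (vertical axis) for the 44 genes, with SE as bars and colour by complex. Below 0 lie 30 of the 44 in females and 36 in males. Cox7a1 lies above 0 on both and Cox7b2 lies above 0 in females and below 0 in males.

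With both sexes averaged, the median log2 fold change was -0.08 over the members and 0.00 over all genes, and 34 of 44 members were below 0 (49% of all genes). That was 8 of 9 genes in complex III, 10 of 16 in complex IV and 15 of 17 in complex V. No member passed adjustment in edgeR (0.0062% of all genes, a single gene, did), DESeq2 or limma-voom. At an unadjusted p under 0.05, 10 members were lower (7.45% of all genes) and 0 higher (7.37% of all genes, making 14.8% in either direction), with 9 and 10 such members in DESeq2 and limma-voom. They were Uqcrc1, Uqcrh and Uqcr11 of complex III, Cycs, Cox5a, Cox6a1, Cox6b1, Cox7b and Cox7a2l of complex IV or its electron donor, and Atp5g1 of complex V. Uqcrh is the hinge protein that helps cytochrome c dock on complex III.

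The log2 fold change was -0.23 for Atp5g1 (SE 0.08, edgeR adjusted p = 0.200), -0.24 for Cox7a2l (SE 0.08), -0.21 for Cox6b1 (SE 0.08), -0.22 for Cycs (SE 0.08) and -0.20 for Cox5a (SE 0.07). Cox7a2l had 30.8, 34.4 and 30.2 CPM in AAV_PGR females and 36.3, 37.3, 38.9 and 27.0 CPM in AAV_Con females, so that in females too all but library 4 of the AAV_Con group lay above the AAV_PGR group. Cycs had 16.1, 14.6 and 12.8 CPM in AAV_PGR females and 15.3, 16.3, 18.2 and 13.3 CPM in AAV_Con females, which overlapped. Cox6b1 had 47.2, 42.7 and 47.4 CPM in AAV_PGR males and 53.4, 55.2 and 46.4 CPM in AAV_Con males, which overlapped through AAV_Con male 3. Cox5a had 51.8, 46.6 and 50.4 CPM in AAV_PGR males and 55.3, 56.3 and 58.0 CPM in AAV_Con males, with no overlap. Without AAV_Con female 4, 2 members passed adjustment: Cox7a2l at -0.29 (SE 0.06, edgeR adjusted p = 0.0336) and Cox6b1 at -0.25 (SE 0.06, edgeR adjusted p = 0.0481). In that fit 338 of all genes passed, in place of 1. On GRCm38, the counted interval of Cox7a2l (ENSMUSG00000024248) is chr17:83501918-83517330, minus strand, and that of Cox6b1 is chr7:30616861-30626151, minus strand, both with introns. No other library left out gave a called member, and no member had all 6 AAV_PGR libraries on one side of all 7 AAV_Con libraries (0.36% of all genes lower, 0.26% higher). The 10 members at an unadjusted p under 0.05 became 4 without AAV_PGR female 4, 5 without AAV_PGR male 2, 6 without AAV_Con female 3, AAV_Con male 1 or AAV_Con male 2, and 12 without AAV_Con female 4. The share of all genes at that level, 14.8% in the full fit, moved too. In the same order it was 12.7%, 10.5%, 13.1%, 12.6%, 10.9% and 19.3%.

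**Figure D4:**
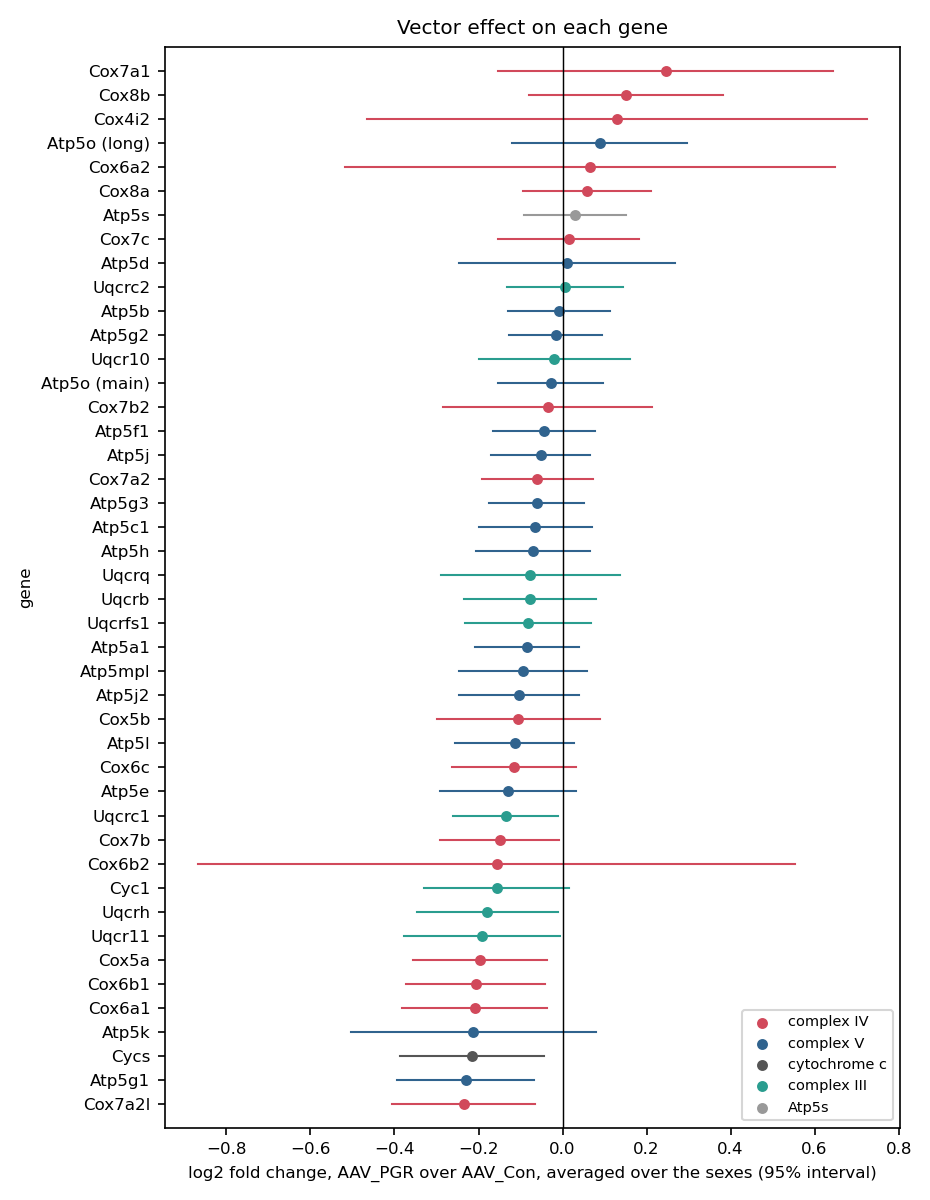
Log2 fold change of AAV_PGR over AAV_Con, averaged over the sexes, for each gene with its 95% interval, ordered by size and coloured by complex. Of the 44 estimates 34 lie below 0, and the intervals of 10 genes lie wholly below 0 before adjustment, with none wholly above.

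**Figure D5:**
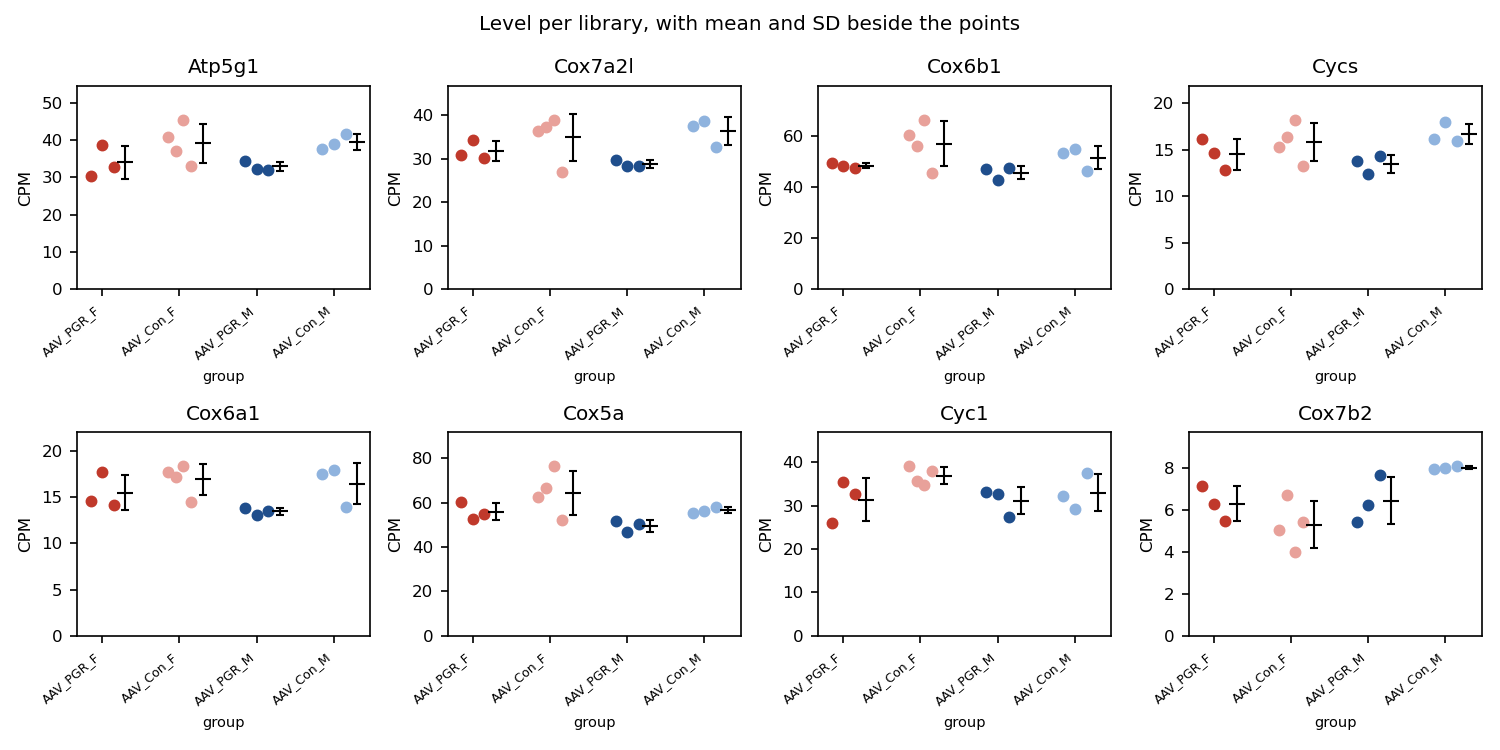
CPM in each library (points) for 8 genes, with the mean and SD of each group beside the points. For Cox7a2l and Atp5g1 the AAV_PGR males lie under the AAV_Con males, and AAV_Con female 4 is the lowest of its group for Cox7a2l, Cox6b1, Cycs, Cox6a1, Cox5a and Atp5g1.

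The 10 members above 0 in the averaged comparison were Cox7a1, Cox8b, Cox4i2, the long Atp5o row, Cox6a2, Cox8a, Atp5s, Cox7c, Atp5d and Uqcrc2. The muscle isoforms were among them, with log2 fold changes of 0.25 for Cox7a1 (SE 0.18), 0.15 for Cox8b (SE 0.11) and 0.07 for Cox6a2 (SE 0.26), none at an unadjusted p under 0.05. Atp5b was at -0.01 (SE 0.06), with 99.5, 115 and 105 CPM in AAV_PGR females, 115, 107, 100.3 and 109 CPM in AAV_Con females, 101, 107 and 115 CPM in AAV_PGR males and 109, 102 and 111 CPM in AAV_Con males. The 95% interval lay within 0.5 of 0 for 39 of the 44 members, the exceptions being Cox4i2, Atp5k, Cox6b2, Cox7a1 and Cox6a2.

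The summed level of the complex III genes was 305, 353 and 316 CPM in AAV_PGR females and 368, 348, 339 and 317 CPM in AAV_Con females, and 317, 309 and 324 CPM in AAV_PGR males and 352, 345 and 333 CPM in AAV_Con males. That of the complex IV genes was 372, 389 and 357 CPM in AAV_PGR females and 407, 400, 422 and 365 CPM in AAV_Con females, and 350, 339 and 373 CPM in AAV_PGR males and 391.7, 396 and 380 CPM in AAV_Con males. For both complexes the male groups did not overlap and the female groups did. Among single genes, 8.48% of all tested were lower without overlap in males, and no such share is given for sums. Complex V, dominated by Atp5c1, Atp5a1, Atp5b and Atp5f1, summed to 905 to 1023 CPM in AAV_PGR females and 924 to 1022 CPM in AAV_Con females, and to 893 to 966 CPM in AAV_PGR males and 934 to 1015 CPM in AAV_Con males. The groups overlapped in both sexes.

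Gene length moved with the vector comparison in females. Among protein-coding genes tested, the quintile with the shortest intervals, which holds 33 of the 44 members, had a median log2 fold change of -0.06 in females, 0.00 in males and -0.03 in the average of both. The quintile of longest intervals stood at 0.03, 0.02 and 0.03 in the same comparisons. The members' medians of -0.05, -0.08 and -0.08 are read beside these values, and the part of length in them was not tested. Members with an ETS match had a median averaged log2 fold change of -0.15 (10 genes, 9 below 0), and the 24 with a window and no ETS match -0.06 (18 below 0). Those with an NRF1 match were at -0.19 (7 genes, all below 0) and the 27 without one at -0.06, while the 4 with the full palindrome were at -0.17 and the 30 without it at -0.07. The 2 genes with a YY1 match were at -0.08, as were the 32 without one. In every set without a match, Atp5o was counted by its long row, which lies above 0. Its window lies at the start of the main row, which lies below 0. The count of 18 is therefore too low, and the medians without a match are approximate. The motif medians are descriptions of overlapping sets, and the differences were not tested. The same medians for other genes with these letters are not given.

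An interaction term, the female minus the male log2 fold change, asked whether the response to AAV_PGR depended on sex. The median over the members was 0.01, 0 members passed adjustment in edgeR (0% of all genes), DESeq2 or limma-voom, and 1 was higher at an unadjusted p under 0.05 in each tool (1.72% of all genes in edgeR, and 3.26% in either direction). That count was 0 to 2 with 1 library left out, 2 without AAV_Con female 1 or AAV_PGR male 3 and 0 without AAV_Con female 3, AAV_PGR female 1, AAV_PGR male 1 or AAV_PGR male 2. That gene was Cox7b2, the testis isoform of subunit 7B, at 0.56 (SE 0.23, edgeR adjusted p = 1.00). It had 7.17, 6.28 and 5.50 CPM in AAV_PGR females and 5.06, 6.74, 3.995 and 5.45 CPM in AAV_Con females, and 5.46, 6.24 and 7.68 CPM in AAV_PGR males and 7.98, 8.03 and 8.09 CPM in AAV_Con males. The AAV_Con males lay above every other library. Cox7c, a small complex IV subunit, was at 0.30 (SE 0.16), Atp5l at 0.21 (SE 0.13), Atp5f1, the b subunit of the ATP synthase stator, at 0.17 (SE 0.11) and Uqcrc2, the other core protein of complex III, at 0.18 (SE 0.13). Atp5l was at 0.11 without AAV_PGR female 1, and Uqcrc2 at 0.11 without AAV_PGR female 2 and 0.12 without AAV_Con female 3.

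Females were set against males under each vector. With AAV_PGR, 0 members passed in edgeR after adjustment (0.143% of all genes), in DESeq2 or in limma-voom, and 0 reached an unadjusted p under 0.05 in any of the 3 tools (3.14% of all genes were lower and 4.11% higher, 7.25% in all). The smallest p was that of Atp5s, with 22.4, 20.7 and 19.8 CPM in AAV_PGR females and 21.6, 24.3 and 24.5 CPM in AAV_PGR males (log2 fold change -0.16, SE 0.08, edgeR adjusted p = 0.760). In all, 5 of the 44 were higher in females without overlap (7.31% of all genes): Uqcrh, Cox6a1, Cox6b1, Cox5a and Cox7a2l. None of the 44 was lower that way (6.41% of all genes), and 13 had a log2 fold change below 0 (46.9% of all genes). Without AAV_PGR female 2 those counts were 5 and 26, 3 were lower without overlap without AAV_PGR male 1 and 1 without AAV_PGR female 1, and 8 lay below 0 without AAV_PGR female 1. The count of 5 was 10 without AAV_PGR female 1, 9 without AAV_PGR female 4 and 12 without AAV_PGR male 3. Shares of all genes are not given for these smaller groups, which fail to overlap more readily. Cox6a1 had 14.6, 17.7 and 14.2 CPM in AAV_PGR females and 13.8, 13.1 and 13.6 CPM in AAV_PGR males (log2 fold change 0.20, SE 0.12). Cox8b, the muscle isoform of subunit 8, had 6.02, 7.81 and 7.93 CPM in AAV_PGR females and 6.875, 9.75 and 9.65 CPM in AAV_PGR males (-0.26, SE 0.16), which overlapped. Atp5l was at 0.16 (SE 0.10) and Cox5a at 0.17 (SE 0.11). Without AAV_PGR female 1 Atp5l was at 0.07, Cox5a at 0.11 and Cox8b at -0.16. Cox6a1 was at 0.09 without AAV_PGR female 2, Atp5l at 0.11 without AAV_PGR male 2 and Cox8b at -0.41 without AAV_PGR male 1. The median over the members, 0.05, was -0.03 without AAV_PGR female 2.

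With AAV_Con, 0 members passed in edgeR (0.229% of all genes) and limma-voom, and 1 was lower in females at an unadjusted p under 0.05 (5.07% of all genes), with 0 higher (7.36% of all genes, making 12.4% in either direction). This was again Cox7b2, at -0.60 (SE 0.16, edgeR adjusted p = 0.160), and all 4 AAV_Con females, whose values are given above, lay below all 3 AAV_Con males. It was the 1 member lower without overlap (4.94% of all genes), and Cox6b2 the 1 higher (6.41% of all genes). The lower count was 4 without AAV_Con male 3, 3 without AAV_Con female 1 and 2 without AAV_Con female 2, AAV_Con female 4, AAV_Con male 1 or AAV_Con male 2. The higher count was 5 without AAV_Con female 4, 3 without AAV_Con male 1 and 2 without AAV_Con female 3 or AAV_Con male 3. Shares of all genes are not given for these smaller groups, which fail to overlap more readily. DESeq2 called Cox7b2, with an adjusted p of 0.0338, as did edgeR without the filter on low counts, with an adjusted p of 0.0284. Its level of 0.0611 CPM per kb over an interval of 105 kb (GRCm38 chr5:71442824-71548205, minus strand) is low, and exons are 0.514% of that interval. Cox7c had 12.9, 11.5, 9.93 and 12.3 CPM in AAV_Con females and 13.2, 14.6 and 12.5 CPM in AAV_Con males (-0.20, SE 0.11), which overlapped. Cox5a was at 0.19 (SE 0.10), Uqcrc2 at -0.15 (SE 0.09) and Cox6b2, at under 1 CPM, at 0.74 (SE 0.45). Without AAV_Con female 3 Cox5a was at 0.09, Uqcrc2 at -0.09 and Cox7c at -0.13. Summed endothelial and fibroblast markers were higher in AAV_Con females than in AAV_Con males without overlap, and their part in these values was not tested. The count of 1 at an unadjusted p under 0.05 was 4 without AAV_Con female 1 or AAV_Con female 4 and 3 without AAV_Con male 3. Of all genes, 11.2%, 15.8% and 9.69% reached that level in these fits, in the same order.

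Other genes of the pathway were counted by lists, with the averaged comparison in edgeR, where none of their genes passed adjustment. Over all genes tested 49% lay below 0, 7.45% were lower and 7.37% higher at an unadjusted p under 0.05. Of 36 tested complex I subunits 32 were below 0 and 19 were lower at an unadjusted p under 0.05, with a median log2 fold change of -0.16. Ndufa12 was at -0.24 (SE 0.07), Ndufa11 at -0.28 (SE 0.08) and Ndufb10 at -0.24 (SE 0.07). All 4 complex II subunits were below 0 and 1 was lower, Sdhb, the iron-sulfur subunit, at -0.15 (SE 0.06). Factors that assemble complex III were below 0 in 5 of 6 cases, led by Lyrm7 at -0.16 (SE 0.06), with 1 lower. Of 20 tested factors for complex IV assembly and copper delivery 16 were below 0, 4 were lower and 1 was higher at an unadjusted p under 0.05. Cox14 was at -0.24 (SE 0.07), Coa7 at -0.21 (SE 0.07) and Cmc1, the one above 0 among these, at 0.13 (SE 0.05). All 5 tested genes of complex V assembly, its inhibitor and its extra subunits were below 0, with 1 lower, Atpaf2 at -0.17 (SE 0.06).

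Of 14 genes for ATP, phosphate and ADP carriers and cristae, 10 were below 0 and 2 were lower, Minos1 at -0.16 (SE 0.06) and the outer membrane channel Vdac1 at -0.17 (SE 0.07). The 18 regulators split into 10 below and 8 above 0, with 3 lower: Pprc1, a coactivator of the PGC-1 family, at -0.39 (SE 0.10), the nuclear receptors Esrra at -0.23 (SE 0.07) and Ppara at -0.27 (SE 0.10). Gabpa was at 0.08 (SE 0.06) and Nrf1 at -0.04 (SE 0.05). All 5 tested subunits encoded by mitochondrial DNA were above 0, with a median of 0.38 and 0 at an unadjusted p under 0.05. Of these, mt-Co3, mt-Atp6 and mt-Co2 averaged under 1 CPM in every group. Nuclei hold few mitochondrial transcripts, and mitochondrial genes took 0.233% to 0.481% of counts, so these values do not measure the mitochondrial pool.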

How the data were processed

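The authors deposited tables of unnormalized read counts, with 1 column per library and 1 row per gene; the submitters' processing notes name STAR 2.5.3a and featureCounts 1.5.0 with GRCm38 and mm10. In all 55536 rows of the broader table the given length equals end minus start plus 1, so introns are counted. The sources used here do not say how reads in overlapping genes were assigned. Opposite-strand partners overlap 13 members and same-strand genes 6, among them both Atp5o rows, which overlap each other, so these values are uncertain, as are those of genes with near-identical copies.

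Counts of the broader deposited table (55536 genes) were tested with edgeR 4.0.16 in R 4.3.3: filterByExpr (16125 genes), TMM, 4 group means over all 13 libraries with 9 residual degrees of freedom, robust quasi-likelihood F tests, Benjamini-Hochberg adjustment over all tested genes at 0.05. SEs came from the log2 fold change and its F statistic (absolute change over root F). DESeq2 1.42.0 and limma-voom 3.58.1 were alternatives. Members and lists were chosen with earlier results of these data known. Named were isoform families, Cyc1, Cycs, the 5 members with the smallest p per comparison and the leading genes of each list; the genes without overlap, those at an unadjusted p under 0.05, Cox7a1 among the changes and Atp5b were chosen after their values were seen. Titles give separate libraries of pooled ventricles, so p-values measure the spread between pools, which may be partly technical. Libraries of a group differed by more than counting noise, so none was a repeat deposit. The edgeR step was checked on simulated counts. Levels and isoform ratios per exonic kb and without length were added after seeing the data. Motif letters were shortened by a base after a first search.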

Additional observations from a re-analysis of the deposited data

Results flagged for a closer look

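Within groups of 4 libraries, 3 members had a single AAV_Con female far from the other 3 by Dixon's ratio. Atp5mpl, a small proteolipid of the ATP synthase, stood at 25.0 CPM in AAV_Con female 1, against 20.1 to 20.8 CPM in the others. Atp5a1 stood at 145 CPM in AAV_Con female 1, against 130 to 132 CPM. Atp5o (ENSMUSG00000022956) stood at 17.99 CPM in AAV_Con female 3, against 18.7 to 18.8 CPM. With 46 sets of values examined, chance flags about 1 in 20.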

How the results depend on the processing

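The count of members past adjustment was 0 in all 6 comparisons under every alternative run, except the sex comparison under AAV_Con, where it was 1 with no filter on low counts and 1 with DESeq2 (Cox7b2 in both), and the averaged comparison, where leaving out 1 library gave 0 to 2. The members' median log2 fold change stayed below 0 for the vector effect in females (-0.11 to -0.03 over libraries left out), in males (-0.12 to -0.06) and averaged (-0.10 to -0.05). TMM factors were 1.01 to 1.06 in AAV_PGR females and 0.979 to 1.01 in AAV_Con females. Before this scaling the members took a mean of 0.174% of counts in both female groups. In males that mean was 0.162% with AAV_PGR and 0.171% with AAV_Con. The part of the scaling in the female median was not tested. The medians near 0 changed sign: the interaction was -0.016 with no filter and -0.046 to 0.041 over libraries left out, the sex median was -0.030 to 0.041 under AAV_Con and -0.029 to 0.079 under AAV_PGR. The cause was not tested. Without overlap the sex comparison under AAV_PGR had 11 members higher on total counts without TMM factors, in place of 5. The share of all genes on total counts is not given.

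The replicate numbers showed no clear pairing of the libraries. Deviations of same-numbered libraries correlated at -0.245 to 0.247, with 3 of 16 pairs over 0.1. Those of different-numbered libraries correlated at -0.325 to 0.271, with 11 of 47 pairs over 0.1. These correlations cannot exclude a pairing. With the number as a replicate block, members at an unadjusted p under 0.05 numbered 0 in females, 6 in males and 7 averaged, and 3 and 2 in the sex comparisons under AAV_PGR and AAV_Con, with 0 past adjustment. Of all genes, 8.72%, 7.35% and 13.1% reached that level in the vector comparisons, in the same order. In the sex comparisons 7.81% and 12.1% did. All-gene counts past adjustment in the averaged comparison were 1 in edgeR, 333 in DESeq2, 146 with no filter and 34 without AAV_PGR female 4. Depth limits Cox4i2 and Cox6b2, with means under 0.5 CPM.

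Dividing by another length, chosen after seeing the data, turned the mean ratio of 5 pairs to the other side of 1. Without length Cox7a1/Cox7a2 was 0.992, Cox8b/Cox8a 0.611 and Atp5g1/Atp5g3 1.29. Per exonic kb Atp5g1/Atp5g2 was 0.510 and Atp5g2/Atp5g3 1.13.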
